A study of Mus musculus with 8 samples.

Results

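Expression of 10 genes of the myostatin and TGF-beta system was compared in C2C12 cells, an established mouse muscle line whose myoblasts fuse into myotubes when serum is withdrawn. They are the secreted ligands Mstn, Inhba, Tgfb1, Tgfb2 and Tgfb3, the ligand trap Fst, and the receptors Acvr2a, Acvr2b, Tgfbr1 and Tgfbr2. They were read through the probes that the platform annotation assigns to exactly 1 gene with one of these 10 symbols. This gave 13 of 31769 probes and 10 of the 14510 genes named on the array. The rule used no measured value.

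RNA was compared between 4 samples of cells stably selected with a retrovirus expressing HDAC4 and 4 samples of cells selected with a Neo control retrovirus. HDAC4 belongs to the class IIa histone deacetylases, which bind MEF2 transcription factors in muscle. Both kinds of cells had reached 90% confluence and were then kept in 2% horse serum for 4 days. Each array held the cells' RNA labelled with Cy5 and a common murine reference RNA labelled with Cy3, which a labelling protocol names as liver, and the dyes were not swapped. Whether each sample was a culture of its own is not said in the labels, so a p-value here reflects only how far these samples scatter, and that scatter may be technical.

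Myostatin and the activins are ligands of the TGF-beta family that bind the type II receptors ACVR2A and ACVR2B on muscle cells, recruit a type I receptor and signal through SMAD2 and SMAD3. Myostatin restrains the growth of skeletal muscle. Follistatin, the product of Fst, binds activins and myostatin outside the cell and keeps them from their receptors. The TGF-beta isoforms use TGFBR2 and TGFBR1 in the same order and are known to hold back the differentiation of cultured myoblasts.

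A value is the deposited log2 ratio of a probe, centred on the median of its array. It was read as cells over reference, so a log2 ratio above 0 means more signal in the cells than in the reference. That direction is likely from the dyes and from the muscle genes, not stated, and the 1 liver gene measured did not lie below 0. For the 7 of 10 myotube marker genes with a probe, the mean log2 ratio over the 13 probes with 8 values lay between 5.80 and 7.04 on the HDAC4 arrays and between 6.59 and 7.24 on the Neo arrays. Of those values, 52 of 52 in HDAC4 and 47 of 52 in Neo were at the reference floor, a lowest reference signal inferred from the values, at which a ratio follows the signal of the cells alone. Of 7 liver genes, 6 had a probe and 1, Ahsg, had enough values to be tested. Its log2 ratio averaged 0.41 ± 0.27 (SD, n = 3) in HDAC4 and 0.62 ± 0.25 (SD, n = 3) in Neo, above 0 although the reference is named as liver, with 2 HDAC4 values and 1 Neo value at the floor. The annotation names no Hdac4 probe, and the labels of the groups were not checked against that gene. The HDAC4 arrays had 17014 to 18521 probes with a value and the Neo arrays 19248 to 22193. The arrays numbered 1 stood apart in both groups: across probes their correlation was 0.94 within the pair and at most 0.90 with the remaining 6 arrays, which correlated among themselves at 0.93 or more. The members were therefore also fitted without these arrays.

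None of the members passed the test between HDAC4 and Neo. A probe was tested in limma if it had at least 3 values in each group, which 11 of the 13 member probes did, for 9 of the 10 genes. At a Benjamini-Hochberg adjusted p under 0.05 over all 16748 probes tested, 0 of the 11 were called, and at an unadjusted p under 0.05 there was 1, the receptor gene Acvr2b. Over all probes tested, 0.125% were called, and 7.03% had an unadjusted p under 0.05. Of the 11 differences 6 lay below 0 and 5 above, and their median was -0.0105 on the log2 scale, beside -0.0036 for all probes tested. In none of the 11 were the groups fully separated, beside 5.25% of all probes tested.

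**Figure D1:**
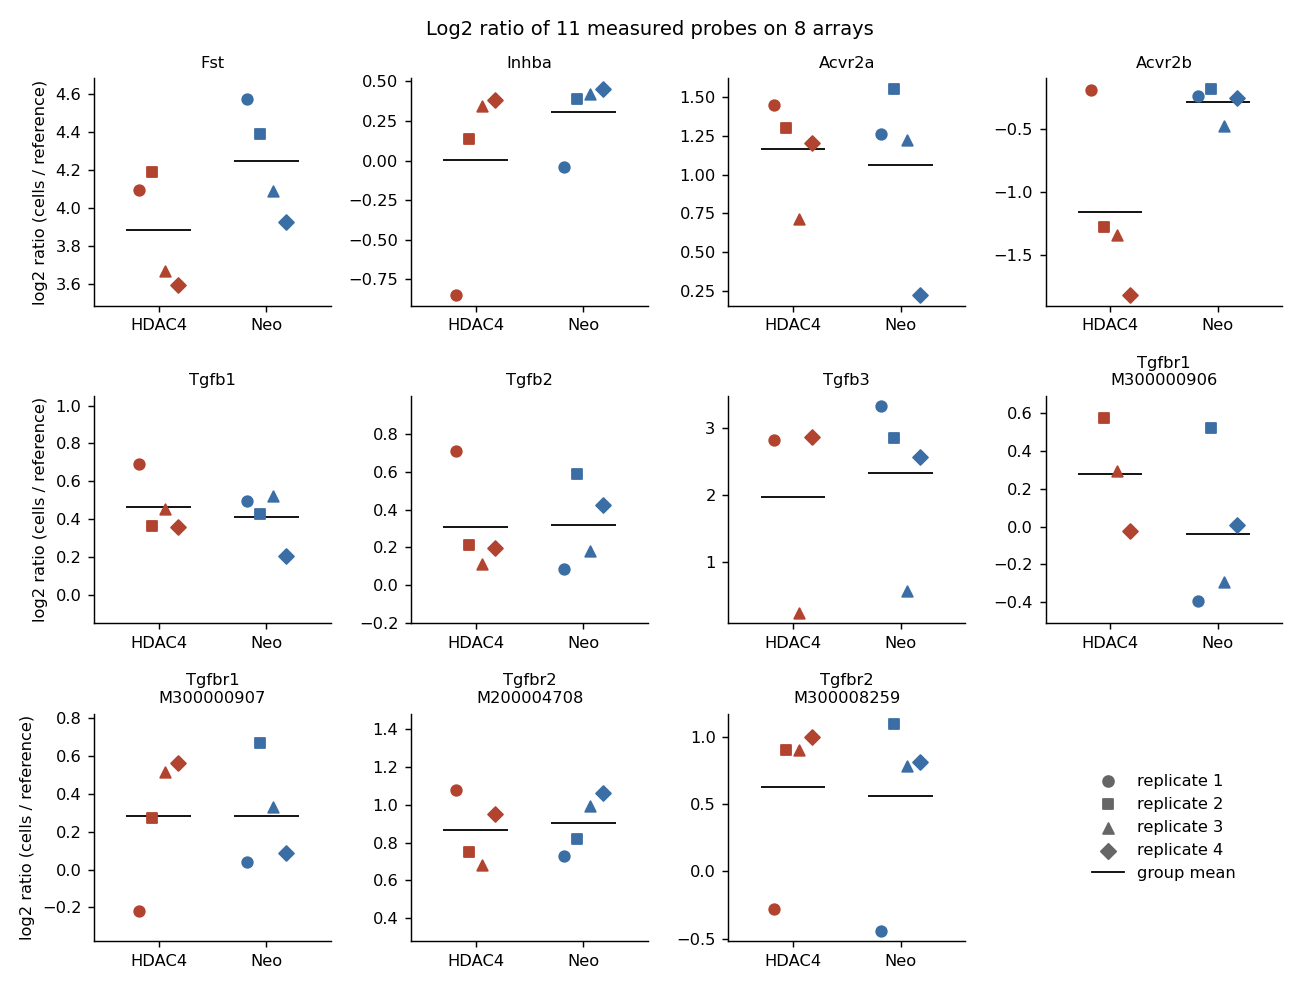
Centred log2 ratio (vertical axis, cells over reference) of the 11 measured probes in HDAC4 and Neo samples, 1 panel per probe, each with its own scale. Marker shapes give the replicate number and black lines the group mean. The Acvr2b panel shows 3 HDAC4 arrays between -1.82 and -1.28, while HDAC4 replicate 1 lies with the Neo arrays at -0.19.

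Acvr2b, a type II receptor for myostatin and activins, had the largest difference of the members. Its log2 ratio was -0.19, -1.28, -1.34 and -1.82 in HDAC4 replicates 1 to 4, against -0.24, -0.18, -0.48 and -0.26 in Neo replicates 1 to 4. The HDAC4 arrays numbered 2 to 4 all lay below every Neo array, while HDAC4 replicate 1 lay inside the Neo range. The mean was -1.16 ± 0.69 (SD, n = 4) in HDAC4 and -0.29 ± 0.13 (SD, n = 4) in Neo. The difference of -0.87 ± 0.30 (SE) on the log2 scale, an expression 1.83-fold lower in HDAC4, did not pass in limma (adjusted p = 0.559; 95% interval -1.54 to -0.20). An exact two-sided permutation test of the same values gave p = 0.114, where 0.0286 is the smallest that 4 against 4 arrays allow.

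Without both arrays numbered 1, Acvr2b was the only member called. It fell to -1.48 ± 0.30 (SD, n = 3) in HDAC4, against -0.31 ± 0.16 (SD, n = 3) in Neo, an expression 2.26-fold lower (log2 difference -1.17 ± 0.17, SE; limma adjusted p = 0.0268). In that fit 1 of 11 member probes was called, beside 1.93% of all probes, and 1.34% of all probes were called lower. With the arrays numbered 1 kept as a batch term Acvr2b did not pass (limma adjusted p = 0.155), and without HDAC4 replicate 1 alone it did (-1.19 on the log2 scale, limma adjusted p = 0.0307). On the arrays numbered 1 alone, with 1 array per group and no test, the HDAC4 value was 0.0487 above the Neo value. The contrast between HDAC4 and Neo differed by 1.22 ± 0.34 (SE) between the arrays numbered 1 and the others, and this interaction did not pass in limma (unadjusted p = 0.00850, adjusted p = 0.152). All 8 ratios of this probe were below 1, where the rule for the reference floor cannot be met, so it says nothing about them.

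Acvr2a encodes the other type II receptor of the pair, and its groups overlapped. Its log2 ratio was 1.45, 1.30, 0.71 and 1.20 in HDAC4 replicates 1 to 4, against 1.26, 1.56, 1.22 and 0.22 in Neo. The HDAC4 values all lay inside the Neo range, and Neo replicate 4 was the lowest of the 8 arrays. The difference was 0.10 ± 0.28 (SE; limma adjusted p = 0.970), with a 95% interval of -0.54 to 0.74 that leaves room for a change of either sign. No test of the difference between the 2 genes' changes was made.

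The promoters of these receptor genes are shown because one gene of the pair was lower on 3 HDAC4 arrays, together with that of Inhba, which holds the only match to the MEF2 motif among the 8 members with a window. The sequences are the 250 bases before the start site in RefSeq, build GRCm38.p6, printed 5′ to 3′ on the gene's strand, at chr9:119401928-119402177 for Acvr2b, chr2:48813859-48814108 for Acvr2a and chr13:16011601-16011850 for Inhba, all on the plus strand. Capitals mark matches, on either strand, to the E-box CANNTG bound by myogenic factors, the Smad box CAGAC, or the MEF2 motif.
Acvr2b: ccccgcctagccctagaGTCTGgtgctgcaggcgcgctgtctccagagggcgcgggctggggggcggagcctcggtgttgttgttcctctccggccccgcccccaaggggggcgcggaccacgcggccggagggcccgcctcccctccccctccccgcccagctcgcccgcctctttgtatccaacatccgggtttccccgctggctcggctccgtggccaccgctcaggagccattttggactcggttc
Acvr2a: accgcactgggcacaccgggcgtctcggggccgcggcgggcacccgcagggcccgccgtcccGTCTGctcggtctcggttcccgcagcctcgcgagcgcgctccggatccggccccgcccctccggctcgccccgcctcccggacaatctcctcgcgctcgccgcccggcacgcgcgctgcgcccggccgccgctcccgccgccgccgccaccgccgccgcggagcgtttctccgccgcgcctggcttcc
Inhba: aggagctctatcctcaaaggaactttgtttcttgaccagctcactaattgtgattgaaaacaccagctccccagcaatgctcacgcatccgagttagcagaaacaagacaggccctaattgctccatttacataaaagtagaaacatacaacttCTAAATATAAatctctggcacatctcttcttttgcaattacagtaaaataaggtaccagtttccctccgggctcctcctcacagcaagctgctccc

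Acvr2b and Acvr2a each held 1 Smad box and no E-box in this window, with a G and C content of 72.8% and 82%. Inhba held 1 MEF2 match and no match to the other motifs, with a G and C content of 43.2%. Of all 32851 promoter windows of this length, 42.2% held a Smad box, 66.2% an E-box and 2.92% a MEF2 match. These are matches of letters only. The RefSeq table held a window for 8 of the 10 members, not for Fst and Tgfb3.

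Inhba encodes the beta A subunit that forms activin A. Its log2 ratio was -0.85, 0.14, 0.35 and 0.38 in HDAC4 replicates 1 to 4, against -0.042, 0.39, 0.42 and 0.45 in Neo. The arrays numbered 1 were the lowest of their group on both sides, and the other 6 values lay close together. The difference between the groups was -0.30 ± 0.27 (SE; limma adjusted p = 0.895) with all arrays and -0.13 ± 0.11 (SE; limma adjusted p = 0.566) without the arrays numbered 1. The arrays numbered 1 lay 0.80 ± 0.16 (SE) below the others with the group kept in the fit (limma adjusted p = 0.0135). On the same arrays the mean log2 ratio of the myotube markers was also lowest, at 5.80 in HDAC4 and 6.59 in Neo. It was 6.87 to 7.04 and 6.90 to 7.24 on the other arrays. Several of the probes in this mean were of 1 gene, Ttn, which therefore weighs most in it. The SD in HDAC4 ran from 0.21 to 1.81 over the Ttn probes. For Myog, Ckm, Tnnt3, Tnnc2, Des and Mylpf it ran from 0.22 to 0.66. The mean of 4 probes for cycling myoblast markers was highest on the arrays numbered 1, at -0.60 in HDAC4 and -0.68 in Neo. It was -1.11 to -1.02 and -1.39 to -0.99 on the others. This mean joins unlike levels. Myod1 averaged 7.77 in HDAC4 and 8.02 in Neo, with all values at the reference floor. Mki67, Top2a and Cdk1 averaged -4.36, -3.72 and -3.45 in HDAC4. These genes were not compared 1 by 1 between the arrays. The part of these markers in the Inhba values was not tested, and in bulk RNA fewer cells of a type and less RNA per cell cannot be told apart.

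Fst, the follistatin gene, lay far above the reference on all 8 arrays. The cells' signal was 17.1, 18.2, 12.7 and 12.1 times the reference in HDAC4 replicates 1 to 4, against 23.8, 20.9, 17.0 and 15.2 times in Neo. The HDAC4 values lay lower on the whole, but HDAC4 replicates 1 and 2 were inside the Neo range. Between arrays of the same number, HDAC4 minus Neo was -0.48, -0.20, -0.42 and -0.34 on the log2 scale for numbers 1 to 4. On the log2 scale the mean was 3.88 ± 0.30 (SD, n = 4) in HDAC4 and 4.24 ± 0.29 (SD, n = 4) in Neo. The difference of -0.36 ± 0.20 (SE), a ratio 1.28-fold lower in HDAC4, did not pass in limma (adjusted p = 0.803; exact permutation p = 0.171). Its 95% interval ran from -0.80 to 0.08, and without the arrays numbered 1 the difference was -0.32 ± 0.20 (SE; limma adjusted p = 0.439). With the replicate number as a block it was -0.36 ± 0.11 (SE; limma unadjusted p = 0.0175, adjusted p = 0.318). The numbers were not taken to pair the arrays.

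Mstn, the myostatin gene itself, had 1 probe, and that probe had no value on any of the 8 arrays. The same held for 7072 of all 31769 probes, 22.3%. No source used here gives the reason for missing values, so nothing is said of the level of Mstn in either group.

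The 3 TGF-beta ligand genes showed no difference beyond the spread of the arrays. Tgfb1 was the most even of them, at 0.69, 0.36, 0.45 and 0.36 in HDAC4 replicates 1 to 4, against 0.49, 0.43, 0.52 and 0.21 in Neo on the log2 scale. Its difference of 0.05 ± 0.14 (SE; limma adjusted p = 0.968) had a 95% interval of -0.25 to 0.36, the narrowest of the members. Tgfb2 had log2 ratios of 0.71, 0.21, 0.11 and 0.20 in HDAC4, against 0.087, 0.59, 0.18 and 0.42 in Neo. HDAC4 replicate 1 was the highest of all 8 arrays and Neo replicate 1 the lowest. The difference was -0.0105 ± 0.18 (SE; limma adjusted p = 0.994) with all arrays and -0.22 ± 0.13 (SE; limma adjusted p = 0.413) without the arrays numbered 1.

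Tgfb3 varied more between replicates than any other member. Its log2 ratio was 2.82, 0.24 and 2.87 in HDAC4 replicates 1, 3 and 4, with no value in replicate 2, against 3.33, 2.86, 0.57 and 2.58 in Neo replicates 1 to 4. The arrays numbered 3 were low in both groups, and these were the 2 Tgfb3 values at the reference floor. The difference of -0.36 ± 0.79 (SE; limma adjusted p = 0.963) had a 95% interval of -2.17 to 1.45, which bounds a change in either direction only loosely. Without both arrays numbered 3, an alternative chosen after the values were seen, the difference was -0.0734.

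The TGF-beta receptors were each read by more than 1 probe, and their probes did not always follow one another. Tgfbr1, the type I receptor ALK5, had 3 probes, of which M300000908 had no value on any array. Probe M300000907 gave -0.22, 0.27, 0.52 and 0.56 in HDAC4 replicates 1 to 4, against 0.041, 0.67, 0.33 and 0.085 in Neo. Its group means were almost equal, with a difference of 0.0026 ± 0.21 (SE; limma adjusted p = 0.998; 95% interval -0.47 to 0.48). Probe M300000906 had 3 HDAC4 values, 2 of them at the floor, and 4 Neo values, none called at the floor, where 2 had ratios below 1 that the rule cannot reach. Its difference was 0.32 ± 0.25 (SE; limma adjusted p = 0.889) with all arrays and 0.20 ± 0.24 (SE; limma adjusted p = 0.698) without the arrays numbered 1. It was 0.17 without HDAC4 replicate 2 and 0.51 without Neo replicate 2, where the unadjusted p was 0.0452 and the limma adjusted p was 0.862. Over 7 arrays the probes correlated at 0.53.

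Tgfbr2, the type II receptor for the TGF-beta ligands, had 2 probes that the annotation ties to different RefSeq transcripts. Probe M200004708 lay between 0.68 and 1.08 in HDAC4 and between 0.73 and 1.06 in Neo on the log2 scale, a difference of -0.0361 ± 0.14 (SE; limma adjusted p = 0.980), and of -0.16 ± 0.12 (SE; limma adjusted p = 0.523) without the arrays numbered 1. Probe M300008259 gave -0.28, 0.90, 0.90 and 0.996 in HDAC4 replicates 1 to 4, against -0.44, 1.09, 0.78 and 0.81 in Neo. Here the arrays numbered 1 lay far below the rest in both groups, and the other 6 values overlapped. The group difference was 0.07 ± 0.38 (SE; limma adjusted p = 0.985), whereas the arrays numbered 1 lay 1.28 ± 0.13 (SE) below the others (limma adjusted p = 0.00142). For the first probe that shift was 0.0279 ± 0.15 (SE; limma adjusted p = 0.913), and over 8 arrays the probes correlated at -0.0925. Among the 11 member probes, this one and Inhba differed between the arrays numbered 1 and the others, beside 21.5% of all probes tested for it.

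**Figure D2:**
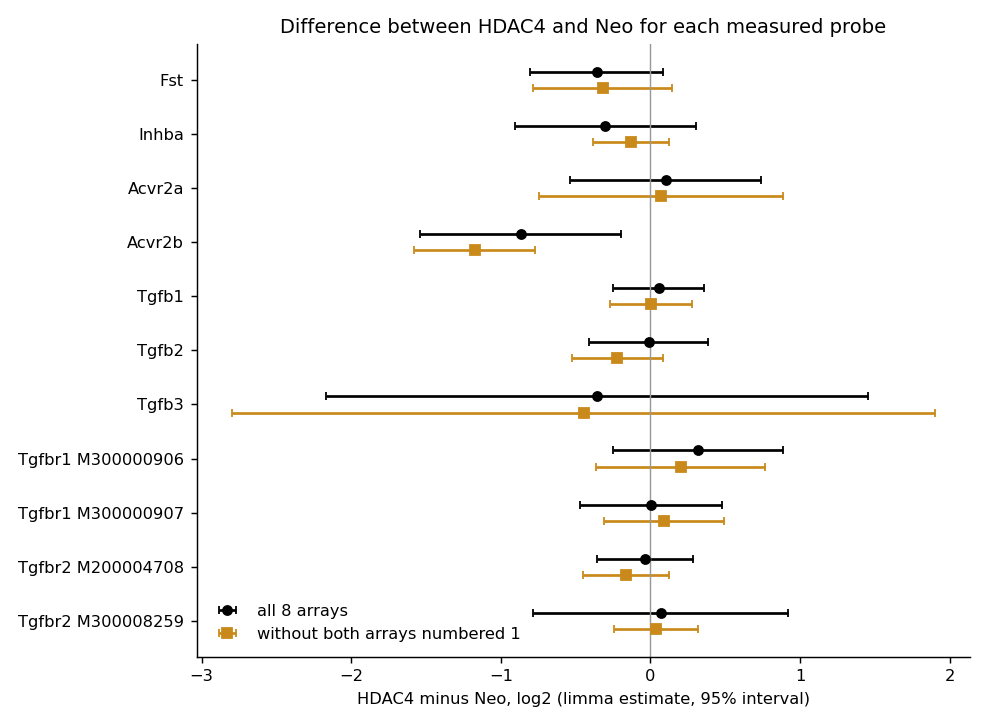
Difference between HDAC4 and Neo (horizontal axis, log2, limma estimate with its 95% interval) for the 11 measured probes. Black circles use all 8 arrays and gold squares leave out both arrays numbered 1. Acvr2b alone has unadjusted intervals that lie below 0 in both fits, at -0.87 and -1.17, and the interval of Tgfb3 is the widest.

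The genes whose profile over the 8 arrays was most like that of Acvr2b, among the 9572 probes with 1 gene and 8 values, were Carns1 (Pearson r = 0.97), Sinhcaf (0.97) and Sesn1 (0.96). For Fst they were Pde7a (0.98), Dclk1 (0.96) and Esm1 (0.96). For Inhba they were Mta3, the titin gene Ttn and Zfp84, each with an r of 0.98 or 0.99. These correlations are descriptions: all points share the same 8 arrays, and with so few of them 102 probes had an r above 0.9 with Acvr2b, 22 with Fst and 100 with Inhba.

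The wider pathway gave no call either. Across 6 lists of other pathway genes, 75 probes of 61 genes were tested, and in limma 0 were called higher and 0 lower, beside 0.00597% and 0.119% of all probes. At an unadjusted p under 0.05 there was 1 higher and there were 4 lower, beside 2.63% and 4.40% of all probes. The median difference over the 75 was -0.0254.

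Of the other ligands, 3 were measured, Gdf11, Inha and Inhbb, all below 0 with a median of -0.35, and none had an unadjusted p under 0.05. Gdf11, a close relative of myostatin, stood at 1.85 ± 0.34 (SD, n = 4) in HDAC4 and 2.20 ± 0.35 (SD, n = 4) in Neo on the log2 scale (limma adjusted p = 0.853), with 2 HDAC4 values and no Neo value at the reference floor. Inha, the inhibin alpha subunit, had a difference of -0.40 ± 0.41 (SE; limma adjusted p = 0.916) from 3 values per group.

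Among extracellular antagonists, latency and storage proteins, 13 probes gave 6 differences below 0 and 7 above, with a median of 0.0244. The smallest p belonged to Ltbp2, a latent TGF-beta binding protein family member of the matrix. Its probe M200001493 averaged -1.33 ± 0.18 (SD, n = 4) in HDAC4 and -0.69 ± 0.36 (SD, n = 4) in Neo, with separated groups (limma adjusted p = 0.434). A second Ltbp2 probe, M300000268, was separated in the same direction with a difference of -0.36 ± 0.12 (SE). Probe M300000266 differed by 0.21 ± 0.29 (SE), with 2 HDAC4 and 2 Neo values at the reference floor. Dcn, the proteoglycan decorin that binds TGF-beta, had a difference of 0.51 ± 0.64 (SE; limma adjusted p = 0.937).

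Of 8 probes for propeptide processing and activation, 5 lay below 0 and 3 above, with a median of -0.17. Itgb6, the integrin subunit that takes part in releasing latent TGF-beta, averaged 2.51 ± 0.52 (SD, n = 4) in HDAC4 and 3.44 ± 0.49 (SD, n = 4) in Neo on probe M200008842. It did not pass with all arrays (limma adjusted p = 0.512) and was called lower with the arrays numbered 1 as a batch (limma adjusted p = 0.0394), where 0.496% of all probes were called lower. All 4 HDAC4 values and 2 of the 4 Neo values of that probe were at the reference floor. Its difference with all arrays was -0.93 on the log2 scale. For 206 probes with nothing but floor values, HDAC4 lay below Neo by a shared floor offset of -0.55. With this offset removed in the fit of all arrays by group only, 0 of the 75 pathway probes were called, Itgb6 included. The offset was not removed in the fits that called Itgb6 lower, so whether it would still be called there was not tested. A second Itgb6 probe, M300005407, with 3 values per group, differed by -0.43 ± 0.23 (SE; limma adjusted p = 0.814) and was not called with the batch either (limma adjusted p = 0.358). Pcsk7, a proprotein convertase, had separated groups at 1.28 ± 0.05 (SD, n = 4) in HDAC4 and 1.06 ± 0.11 (SD, n = 4) in Neo (limma adjusted p = 0.778).

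Other receptors gave 6 probes with a median of -0.0166 and no unadjusted p under 0.05. The lowest p were those of the type I receptor gene Acvr1, at -0.47 ± 0.23 (SE; limma adjusted p = 0.764) on probe M200000246, and of Fkbp1a, whose product binds type I receptors, at 0.35 ± 0.20 (SE; limma adjusted p = 0.807). The other Acvr1 probes were closer to 0, M300005315 at -0.0853 ± 0.12 (SE) and M300005316 at 0.0089 ± 0.22 (SE).

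Of 24 probes for Smads and their regulators, 13 lay below 0 and 11 above, with a median of -0.0080. Tob1, an antiproliferative protein that interacts with Smads, averaged 2.12 ± 0.16 (SD, n = 4) in HDAC4 and 1.66 ± 0.09 (SD, n = 4) in Neo. Its groups were separated, but it did not pass in limma (adjusted p = 0.384). Trim33, which acts on Smad4, had a difference of -0.28 ± 0.16 (SE; limma adjusted p = 0.824).

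Genes known to respond to TGF-beta gave 21 probes of 18 genes, 13 below 0 and 8 above, with a median of -0.13. Several of the probes below 0 were of 1 gene, Tpm1, named here for that reason. They differed by -0.29, -0.51, -0.39 and -0.13, and the last of them is the median of the list. Postn, the matrix protein periostin, averaged 2.78 ± 0.21 (SD, n = 4) in HDAC4 and 3.50 ± 0.46 (SD, n = 4) in Neo, a difference of -0.72 ± 0.23 (SE; limma adjusted p = 0.475). Without the arrays numbered 1 its difference was -1.02 ± 0.15 (SE; limma adjusted p = 0.0280). Cdkn2b, the cyclin-dependent kinase inhibitor p15, had a difference of 0.43 ± 0.20 (SE; limma adjusted p = 0.747).

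Without the arrays numbered 1, 3 of the 75 pathway probes were called, all lower, beside 1.34% of all probes. These were Postn, Itgb6 (-0.99 ± 0.18, SE; limma adjusted p = 0.0462) and Mmp14. The floor offset given above for Itgb6 was not removed in this fit. Mmp14, a membrane-bound matrix protease named after its values were seen, had a difference of -0.93 ± 0.09 (SE; limma adjusted p = 0.00820) there and of -0.43 ± 0.30 (SE; limma adjusted p = 0.876) with all arrays.

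**Figure D3:**
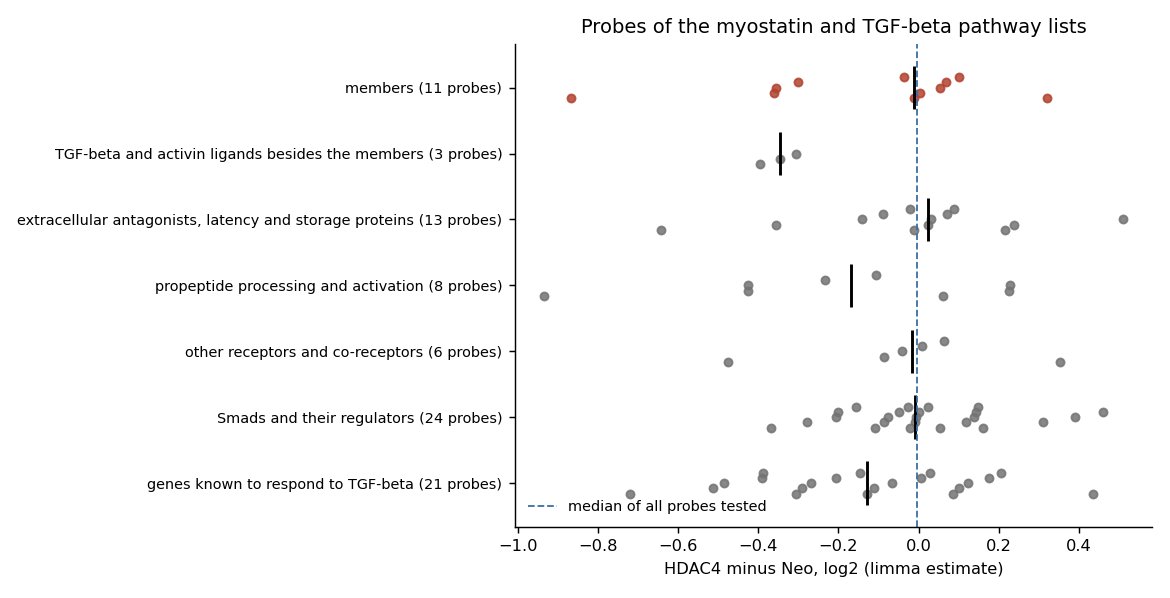
Difference between HDAC4 and Neo (horizontal axis, log2, limma estimate with all arrays) for each tested probe of the members and of 6 lists of pathway genes. Each point is a probe, black bars are list medians and the dashed line is the median of all probes tested, -0.0036. The list medians run from -0.35 for 3 other ligands to 0.0244 for antagonists and storage proteins.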

How the data were processed

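The deposited table holds log2 ratios, 1 for each probe on each array. How the authors corrected, normalized and filtered them, and with what software, is not given in any label used here. The 8 columns had medians of 0.00576 to 0.0286. Probes were named from the platform annotation, in which 18976 probes name 1 gene, 404 name several and 12389 are not listed, and symbols were updated through RefSeq (GRCm38.p6, names and promoters only).

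Each array was centred on its median, and each probe with at least 3 values per group was tested in limma 3.58.1 under R 4.3.3 (lmFit and eBayes, group only), with Benjamini-Hochberg adjustment at 0.05 over all probes. Probes were not averaged to genes, since missing probes shift a gene's mean. The fit was tested on simulated data. Member probes were also given an exact permutation test (two-sided). The number of arrays limits the precision.

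A value is called at the reference floor where 10 times the ratio is a whole number of at least 10 within 0.001. Such whole values numbered 115 at 9 and 1921 at 10, so the floor is inferred. Of the 86 member values, 4 were at it, and 15 had a ratio below 1, which the rule cannot call.

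Named were all members, the 2 genes of each list with the smallest p, and, for the 3 members with the smallest p and 8 values, the 3 genes most alike. The members and lists were chosen with earlier results of these data known. Alternatives covered gene means, filters, centring, quantile normalization, the floor, batch, replicate block, array weights and left-out arrays.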

Additional observations from a re-analysis of the deposited data

Results flagged for a closer look

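In 3 of the 20 groups of 4 member values, 1 array stood apart from the other 3 by Dixon's criterion, each time replicate 1. They were Inhba on Neo replicate 1 (log2 ratio -0.042), Tgfb2 on HDAC4 replicate 1 (0.71) and the Tgfbr2 probe M300008259 on HDAC4 replicate 1 (-0.28). Chance alone flags about 5% of groups, and over all probes tested 10.0% of groups had such an array.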

How the results depend on the processing

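The count of 0 called member probes held under all alternatives except 3 in which Acvr2b passed. These were leaving out both arrays numbered 1 (1 member probe, adjusted p = 0.0268), array weights (1, adjusted p = 0.0153) and leaving out HDAC4 replicate 1 (adjusted p = 0.0307), while in the other 17 alternatives its limma adjusted p lay between 0.155 and 0.9996. Its sign held in all 20. Without 1 array, the count of called member probes ranged from 0 to 1, that of pathway probes was 0 throughout, and that of all probes ranged from 0 to 100. It was 100 without HDAC4 replicate 1 and 71 without Neo replicate 1, then 4 and 11 without HDAC4 replicates 2 and 3. It was 0 in limma without HDAC4 replicate 4 or without Neo replicate 2, 3 or 4, with 863, 958, 1001 and 991 at an unadjusted p under 0.05. Of all probes, beside 21 in the planned fit, 1 passed with floor values missing, 0 with the floor offset removed (1120 at an unadjusted p under 0.05), 108 with the arrays numbered 1 as a batch, 323 without them, 612 with array weights, and 0 without both arrays numbered 3 (665 unadjusted), a setting chosen after the data were seen. Of the pathway probes, 1 passed with the batch, 3 without the arrays numbered 1 and 5 with array weights, adding Fn1 and Tob1 to Postn, Itgb6 and Mmp14. The weights of the arrays numbered 1 were 0.221 in HDAC4 and 0.228 in Neo.

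With the replicate block, 9 of all probes passed in limma and 0 member probes. At an unadjusted p under 0.05 there were 1934 of all 16748 probes, beside 1177 in the planned fit. Of the 11 member probes there were 2, Acvr2b (limma unadjusted p = 0.0116, adjusted p = 0.288) and Fst. Only Fst and Inhba were lower in HDAC4 in all 4 same-numbered pairs. Same-numbered arrays correlated in their deviations at 0.52, 0.29, 0.193 and 0.097 for numbers 1 to 4. HDAC4 replicates 1 to 3 each correlated best with the Neo array of their number, replicate 3 nearly as well with Neo replicate 2 (0.187). HDAC4 replicate 4 correlated best with Neo replicate 2 (0.24), so the numbers were not taken to pair the arrays.

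Signs near 0 turned. Array weights gave -0.16 for Acvr2a and -0.0392 for Tgfb1, and without the arrays numbered 3 Tgfb2 was 0.0087, the Tgfbr1 probe M300000907 -0.0596 and the Tgfbr2 probe M200004708 0.0559. Gene means gave 0.0157 for Tgfbr2. Leaving out 1 array, the log2 difference ranged from -0.18 to 0.27 for Acvr2a, -0.0210 to 0.0912 for Tgfb1, -0.14 to 0.0784 for Tgfb2, -0.94 to 0.51 for Tgfb3, -0.0909 to 0.17 for Tgfbr1 M300000907, -0.11 to 0.0250 for Tgfbr2 M200004708 and -0.27 to 0.37 for Tgfbr2 M300008259. The cause was not tested. Fst ranged from -0.47 to -0.25, Inhba from -0.43 to -0.0162 and Tgfbr1 M300000906 from 0.17 to 0.51. Tgfb3 and Tgfbr1 M300000906 had no result with floor values missing or with 8 values required, as too few values were left.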
